A study of Caenorhabditis elegans with 26 samples.

Results

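The 8 genes described here are the Argonaute genes of Caenorhabditis elegans of the Piwi type and of the types that bind primary small RNAs, together with the Argonaute gene csr-1: prg-1, prg-2, rde-1, ergo-1, alg-1, alg-2, alg-5 and csr-1. They were chosen by name among 22273 genes of the count table, with earlier results of these data known. The transcripts of each were summed. Of the 8 genes, 5 had enough reads to be tested, among 5312 tested genes. The counts come from small-RNA libraries of whole worms in 3 groups of 2 libraries. The first group was rde-3 mut-16(DE6R), which carries the DE6R allele of mut-16 together with a mutation of rde-3 and is called the double mutant below. The second was mut-16(DE6R) alone and the third was wild type (WT). The labels do not explain the allele name, give no age or sex of the worms, and leave unsaid whether worms were grown separately for each library. The p-values therefore rest on the spread among these 6 libraries, part or all of which may be technical.

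Argonaute proteins hold a short guide RNA and find transcripts that pair with it. PRG-1 is the worm Piwi protein and holds piRNAs in the germline, prg-2 is its paralog, RDE-1 holds small RNAs cut from foreign double-stranded RNA, ERGO-1 holds a class of germline and embryonic small interfering RNAs, and ALG-1 and ALG-2 hold microRNAs. Target transcripts found by the primary Argonautes can be copied by RNA-dependent RNA polymerases into secondary small RNAs, a step that for many targets takes place in mutator foci, which are built on the scaffold MUT-16 and use the nucleotidyltransferase RDE-3. CSR-1 holds secondary small RNAs made on many germline-expressed genes. The values below are small-RNA reads that fell on the Argonaute genes themselves, as possible targets. They are not mRNA levels of these genes and not the guides that the proteins hold.

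Counted reads per library ranged from 515300 to 584502 in the double mutant, from 620047 to 1571194 in mut-16(DE6R) and from 1149904 to 1359593 in WT. A single gene, F56H9.8, held 55.5% of the reads in either double-mutant library, from 37.5% to 37.6% in mut-16(DE6R) and from 49.5% to 51.7% in WT, so that the scaling between libraries weighs on every small change. Reads on the perturbed genes were too few to check the genotypes, and small-RNA reads would not do so: mut-16 held 15 reads in the double mutant, 7 in mut-16(DE6R) and 7 in WT, and mut-2, the gene of RDE-3, held 2, 7 and 1 in the same groups. Small-RNA reads on marker genes of tissues, the germline included, moved between the groups, though such reads do not measure tissue content. Summed over 9 intestine genes, reads were at 561 to 681 CPM in the double mutant, 269 to 295 CPM in mut-16(DE6R) and 59.2 to 75.6 CPM in WT, where CPM is reads per 1000000 after scaling by trimmed means of M values (TMM). Summed over 7 muscle genes they were at 224 to 230 CPM, 79.8 to 83.5 CPM and 39.1 to 41.0 CPM in the same groups. Summed over 8 neuron genes they were at 20.6 to 23.5 CPM, 126 to 142 CPM and 330 to 336 CPM, and over 7 germline genes at 1388 to 1435 CPM, 1111 to 1181 CPM and 1267 to 1482 CPM. Of the neuron genes, unc-104, rab-3, egl-3, snt-1 and ida-1 held 0 reads in the double mutant, and rab-3 and snt-1 held 0 in WT. All 7 tested intestine genes were called higher in either mutant than in WT, and 3 of 4 tested neuron genes lower in each. The other neuron gene, snb-1, was called higher in mut-16(DE6R) against WT (log2 fold change 1.67). Of 4 tested muscle genes 4 were called higher in the double mutant and 2 in mut-16(DE6R), each against WT. Over all tested genes 26.8% were called higher and 37.9% lower in the double mutant against WT. In mut-16(DE6R) against WT these shares were 22.1% and 36.6%. There DESeq2 called 5 intestine genes and 1 muscle gene higher. With library totals 4 muscle genes were higher there and 2 neuron genes lower. Of 6 tested germline genes 2 were called higher and 1 lower in the double mutant against WT, and 1 and 1 in mut-16(DE6R) against WT. With library totals 5 were called higher and 0 lower in either mutant against WT. The part of these markers in the results below was not tested.

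What the table counts on an Argonaute gene differed between the members. Reads were listed per transcript, and transcripts that share all of their sequence with another isoform of the same gene held almost none. Over the whole table, 7531 transcripts had no 22-base window of their own among the isoforms listed, and they held 0.0214% of the reads, 1213 in all. The 16135 transcripts that are the only one of their gene held 91.7% of the reads outside F56H9.8. Each of prg-1, prg-2, rde-1 and alg-5 has 1 listed transcript, so that all of its length could be counted. The genes with several isoforms were counted over a part of their length: ergo-1 over 1510 windows of 1 of its 4 transcripts, alg-1 over 2070 windows of 2 of 4, alg-2 over 982 windows of 1 of 2, and csr-1 over 75 windows of 2 of 3. All reads of these 4 genes stood under transcripts with such windows, and their 7 transcripts without any held 0 reads. Among protein-coding genes 29.3% of the 14259 with 1 transcript passed the filter on low counts, against 1.59% of the 1700 with several transcripts and under 100 windows, a class that includes csr-1. Levels between genes are therefore given per kilobase of isoform-specific windows. Whether reads shared with another gene were also left out was not tested, which bears on prg-1 and prg-2, close paralogs, and on alg-1 and alg-2. The use of strand is not given, and genes that overlap prg-1, ergo-1 and alg-5 on the opposite strand, by 12, 17 and 71 exonic bases, held 0, 2 and 4 reads. On the same strand csr-1 shares 438 exonic bases with frpr-10, which held 2 reads, and alg-1 shares 96 with a snoRNA that is not listed in the table.

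**Figure D1:**
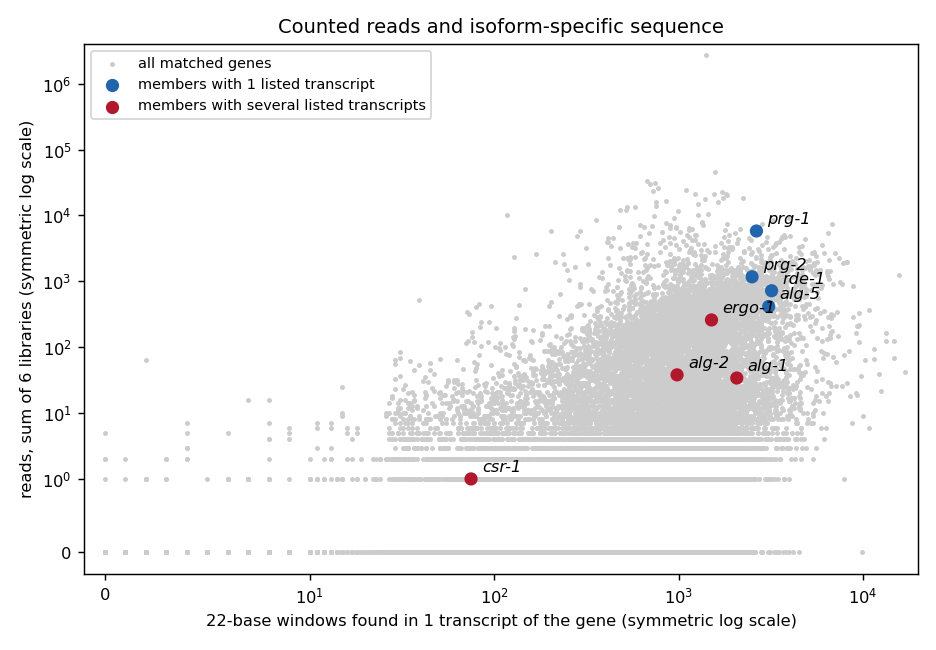
Reads summed over 6 libraries (vertical, symmetric log scale) against the number of 22-base windows found in only 1 listed transcript of the gene (horizontal, symmetric log scale), with all matched genes in grey and the 8 Argonaute genes in colour. The gene csr-1 stands at 75 windows and 1 read, far left of prg-1, which has 2645 windows and 5800 reads.

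Ordered by reads per kilobase of such sequence, prg-1 stood first in each group. In WT the order of mean levels was prg-1 at 432 ± 30.7 CPM per kilobase, prg-2 at 98.3 ± 2.59, ergo-1 at 36.4 ± 1.65, rde-1 at 30.1 ± 4.87, alg-5 at 25.3 ± 4.60, alg-2 at 18.9 ± 10.4 and alg-1 at 4.09 ± 1.48 (SD, n = 2 each), with csr-1 at 0 reads. The libraries of rde-1 and alg-5 overlapped, as did those of alg-5 and alg-2, so these neighbours did not differ beyond their spread. In the double mutant the leading levels were prg-1 at 374 ± 22.6, prg-2 at 110 ± 15.3, rde-1 at 43.7 ± 4.99, ergo-1 at 34.9 ± 0.503 and alg-5 at 30.7 ± 1.84 CPM per kilobase (SD, n = 2 each). In mut-16(DE6R) they were prg-1 at 364 ± 1.57, prg-2 at 59.2 ± 1.01, rde-1 at 42.9 ± 4.02, ergo-1 at 24.6 ± 0.346 and alg-5 at 19.8 ± 1.39 (SD, n = 2 each). The mean of rde-1 lay above that of ergo-1 in both mutants and under it in WT. Among 8688 genes with at least 1000 such windows, the level of prg-1 exceeded 99.8% in the double mutant, 99.6% in mut-16(DE6R) and 98.9% in WT, and that of alg-1 exceeded 64.3%, 57.1% and 59.3% in the same groups.

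**Figure D2:**
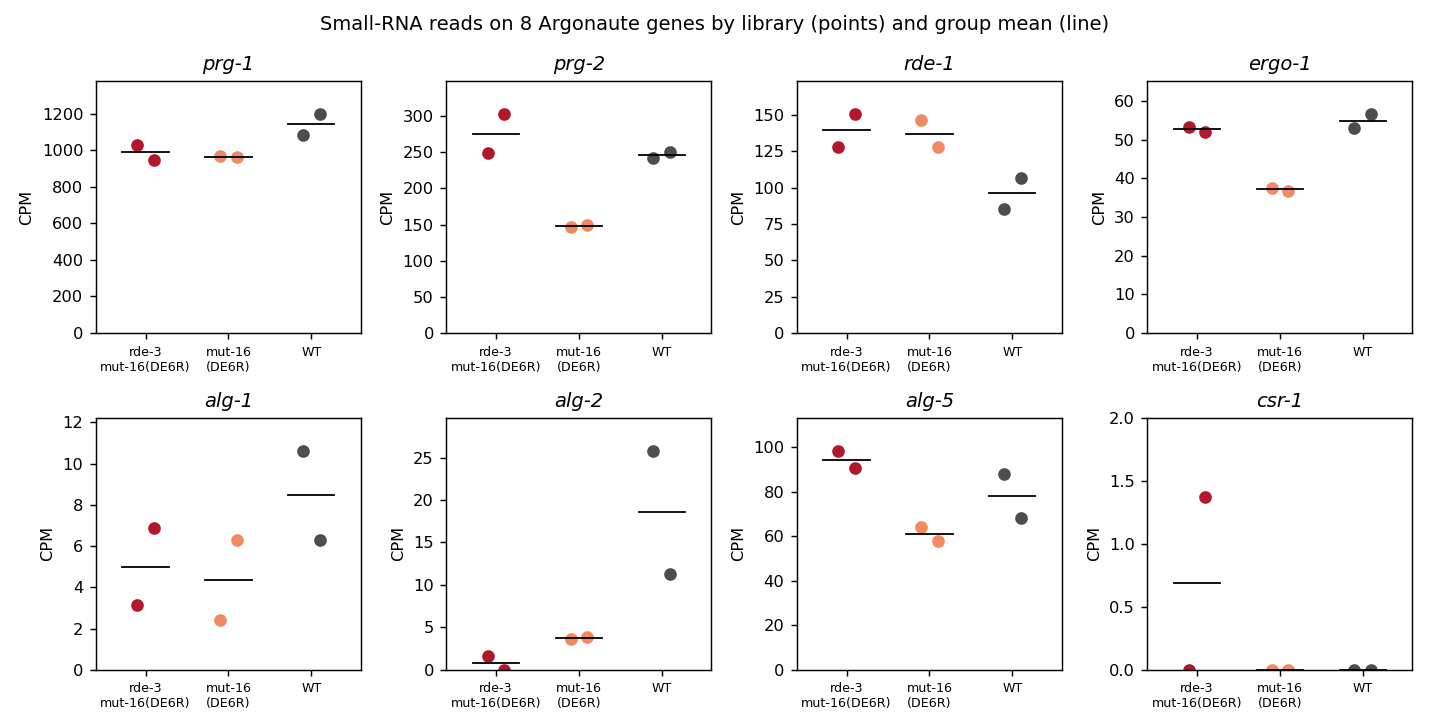
CPM (vertical, from 0, a separate scale per gene) of the 8 genes in each library (points) with the group mean (line), for the double mutant, mut-16(DE6R) and WT. The genes prg-2, ergo-1 and alg-5 are lowest in mut-16(DE6R), rde-1 is lowest in WT, and csr-1 has 1 read in all.

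The Piwi gene prg-1 (WBcel235, chromosome I, 7585329 to 7588367, minus strand) was the most heavily covered member. It held 1031 and 946 CPM in the double mutant, 967 and 961 CPM in mut-16(DE6R), and 1085 and 1199 CPM in WT. All 4 mutant libraries lay under both WT libraries with TMM scaling. The log2 fold change was −0.21 (SE 0.08) in the double mutant against WT and −0.25 (SE 0.07) in mut-16(DE6R) against WT, called lower by the quasi-likelihood F test of edgeR (Benjamini-Hochberg adjusted p = 0.0104 and 0.00149), but the direction turned to higher when libraries were scaled to their totals, to totals without F56H9.8 or to upper quartiles. Between the double mutant and mut-16(DE6R) the log2 fold change was 0.04 (95% interval −0.11 to 0.18; edgeR adjusted p = 0.738). With only genes of 1 listed transcript in the fit, neither fall against WT passed (−0.08 and −0.14, edgeR adjusted p = 0.352 and 0.0730). Nor did the fall in the double mutant without its second library (−0.18) or with no filter on low counts (−0.16), or that in mut-16(DE6R) with only the 2 groups compared in the fit (−0.11), and with no filter mut-16(DE6R) was at 0.10.

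The paralog prg-2 (chromosome IV, 6526962 to 6529802, minus strand) is annotated as a pseudogene in WBcel235. Its libraries held 249 and 303 CPM in the double mutant, 146 and 150 CPM in mut-16(DE6R), and 242 and 251 CPM in WT. The mut-16(DE6R) libraries lay under all others, and those of the double mutant overlapped with WT. Reads rose in the double mutant against mut-16(DE6R), with a log2 fold change of 0.90 (SE 0.12, 95% interval 0.67 to 1.13; edgeR adjusted p = 2.39e-13), and this call held under every alternative run, scalings and left-out libraries included. They fell in mut-16(DE6R) against WT by 0.73 in log2 units (SE 0.12; edgeR adjusted p = 4.17e-09), but the estimate was 0.46 with library totals and 0.13 with totals without F56H9.8, and the fall did not pass with no filter on low counts (−0.37, edgeR adjusted p = 0.0749). The double mutant was at 0.17 against WT (95% interval −0.06 to 0.41, edgeR adjusted p = 0.204), and without its second library at −0.013. This comparison depended on scaling. Upper quartiles put prg-2 above WT in the double mutant (0.71, called higher). So did totals that leave F56H9.8 out (1.43) and library totals (1.27). A fit on genes of 1 listed transcript also called it higher (0.31). DESeq2 (0.12), the fit with no filter (0.22) and that of only the 2 groups compared (0.14) did not.

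Of 286 tested pseudogenes, which include prg-2, most had lower log2 fold changes than prg-2. A gene could pass the filter through reads in WT alone, which favours pseudogenes that are lower in the mutants. These counts therefore do not set prg-2 apart. Over all tested genes the median was −0.03 in the double mutant against WT and −0.09 in mut-16(DE6R) against WT. It was −0.02 in the double mutant against mut-16(DE6R). In the double mutant against WT, 8 of 286 tested pseudogenes were higher and 247 lower, with a median log2 fold change of −4.61, and 269 of them lay below prg-2. In the double mutant against mut-16(DE6R), 17 were higher and 187 lower with a median of −2.46, and again 269 lay below prg-2. In mut-16(DE6R) against WT, 14 were higher and 228 lower with a median of −1.66, and 218 lay below prg-2.

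The gene rde-1 (chromosome V, 9987916 to 9991642, minus strand) encodes the Argonaute of RNA interference by foreign double-stranded RNA. It held 128 and 151 CPM in the double mutant, 146 and 128 CPM in mut-16(DE6R), and 85.1 and 107 CPM in WT. Every mutant library lay above both WT libraries. Reads rose in the double mutant against WT (log2 fold change 0.53, SE 0.17; edgeR adjusted p = 0.00368) and in mut-16(DE6R) against WT (0.47, SE 0.15; edgeR adjusted p = 0.00492), and they stayed higher under every scaling tried, with estimates up to 1.79 and 1.66. The mutants were at 0.06 against each other (95% interval −0.22 to 0.34; edgeR adjusted p = 0.758). DESeq2 called neither rise (0.49 in each, adjusted p = 0.0965 and 0.0985). Without the first WT library the estimates were 0.36 and 0.31 and did not pass, nor did that of the double mutant without its second library (0.38).

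The gene ergo-1 (chromosome V, 1008803 to 1018352, plus strand) encodes the Argonaute of the ERGO-1 class of small interfering RNAs. Over the part that was counted it held 53.2 and 52.1 CPM in the double mutant, 37.5 and 36.8 CPM in mut-16(DE6R), and 53.2 and 56.7 CPM in WT, from 31 to 76 reads per library. The mut-16(DE6R) libraries lay under those of the other groups, whose libraries overlapped. A fall was called in mut-16(DE6R) against WT (log2 fold change −0.57, SE 0.23; edgeR adjusted p = 0.0263), but the estimate was 0.62 with library totals and 0.28 with totals without F56H9.8. DESeq2 did not call this fall (−0.58, adjusted p = 0.206), and it did not pass without the second mut-16(DE6R) library (−0.55) or without the first or second WT library (−0.62 and −0.53). The double mutant was at 0.51 against mut-16(DE6R) (95% interval 0.04 to 0.98; edgeR adjusted p = 0.0748) and at −0.07 against WT (95% interval −0.56 to 0.43; edgeR adjusted p = 0.832).

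Of the genes of microRNA-type Argonautes, alg-5, whose protein is found in the germline (chromosome I, 9989802 to 9993976, plus strand), was covered well enough to be tested. It held 98.6 and 90.5 CPM in the double mutant, 64.1 and 58.1 CPM in mut-16(DE6R), and 88.1 and 68.0 CPM in WT. The double mutant was above every other library and mut-16(DE6R) below every other library. Reads rose in the double mutant against mut-16(DE6R) (log2 fold change 0.65, SE 0.18; edgeR adjusted p = 0.00143), with estimates of 0.57 to 1.06 over 5 scalings. DESeq2 did not call this rise (0.60, adjusted p = 0.130), and it did not pass without the second mut-16(DE6R) library (0.56) or with no filter on low counts (0.34). Against WT the double mutant was at 0.29 (95% interval −0.10 to 0.67, edgeR adjusted p = 0.191). Against WT mut-16(DE6R) was at −0.36 (95% interval −0.74 to 0.01, edgeR adjusted p = 0.0856), and at −0.57 without the second WT library. Both results depended on scaling. With library totals alg-5 was called higher than in WT in the double mutant (1.39) and in mut-16(DE6R) (0.82). The same held with totals without F56H9.8 (1.54 and 0.49). With upper quartiles the double mutant was called higher (0.82) and mut-16(DE6R) was at 0.03, not called. DESeq2 called neither (0.23 and −0.37). Annotated non-coding RNAs, which are not listed in the table, share 101 and 58 exonic bases with alg-5 on its strand.

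The main microRNA Argonaute genes, alg-1 and alg-2, held few reads. On alg-1 (chromosome X, 13949110 to 13956261, plus strand) there were 2 and 5 reads in the double mutant, 2 and 13 in mut-16(DE6R), against 7 and 5 in WT. With TMM factors the ratio was 0.619 in the double mutant over WT (95% counting interval 0.207 to 1.71) and 0.627 in mut-16(DE6R) over WT (0.274 to 1.47). With library totals the ratios were 1.33 (0.444 to 3.67) and 1.43 (0.626 to 3.35), so a difference was not detectable at this depth. On alg-2 (chromosome II, 873212 to 879885, plus strand) there were 1 and 0 reads in the double mutant, 3 and 8 in mut-16(DE6R), against 17 and 9 in WT, all under the longer of its transcripts. By CPM the 3 groups did not overlap. The double mutant was 24.5-fold lower than WT (counting interval 4.02 to 1004), or 11.4-fold lower with library totals (1.87 to 467). The mut-16(DE6R) worms were 4.71-fold lower than WT (counting interval 2.25 to 10.6), or 2.06-fold lower with library totals, an interval (0.985 to 4.63) that includes equal levels. With no filter on low counts edgeR called alg-2 lower in the double mutant and in mut-16(DE6R) than in WT (adjusted p = 7.4e-05 and 0.00865). These intervals, from an exact binomial, cover counting error only, and the WT libraries themselves differed, at 25.8 and 11.3 CPM.

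The gene csr-1 (chromosome IV, 7957267 to 7962157, plus strand) held 0 and 1 reads in the double mutant, 0 and 0 in mut-16(DE6R), against 0 and 0 in WT. Its 75 countable windows are 0.765% of those in its 3 transcripts. A floor of 3 reads per library corresponds to between 19.4 and 62.6 CPM per kilobase over these windows. It lies above the WT level of rde-1 in 5 of the 6 libraries, so such a level could be missed in a single library. Summed over all libraries, 164, 16.9 and 12.9 reads would have fallen in as many windows at the rates of prg-1, rde-1 and ergo-1. At the rates of prg-2, alg-5, alg-2 and alg-1 there would have been 35, 10.1, 2.90 and 1.23, and 1 read was counted. Pooled, csr-1 thus held fewer reads over these windows than the average rates of prg-1, prg-2, rde-1, ergo-1 and alg-5 would give. It could not be told from alg-1 or alg-2. These figures take coverage to be even along each gene, and no interval or test was made. Whether these windows were counted as fully as those of the other genes was not tested, and the rest of csr-1 was not counted. No comparison of csr-1 between the groups is given.

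The 3 comparisons share libraries in pairs, so their results are not independent of each other. In the double mutant against WT, 1 of 5 tested members rose and 1 fell, where 26.8% and 37.9% of all tested genes did and 64.7% changed in either direction. The members' median log2 fold change was 0.17, against −0.03 for all genes. In mut-16(DE6R) against WT, 1 rose and 3 fell, where 22.1% and 36.6% of all tested genes did and 58.7% changed in either direction, with medians of −0.36 and −0.09. In the double mutant against mut-16(DE6R), 2 rose and 0 fell, where 16.5% and 26.2% of all tested genes did and 42.8% changed in either direction, with medians of 0.51 and −0.02. DESeq2 called 0 members lower there too, and at an unadjusted p under 0.05 edgeR also had 0 lower.

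**Figure D3:**
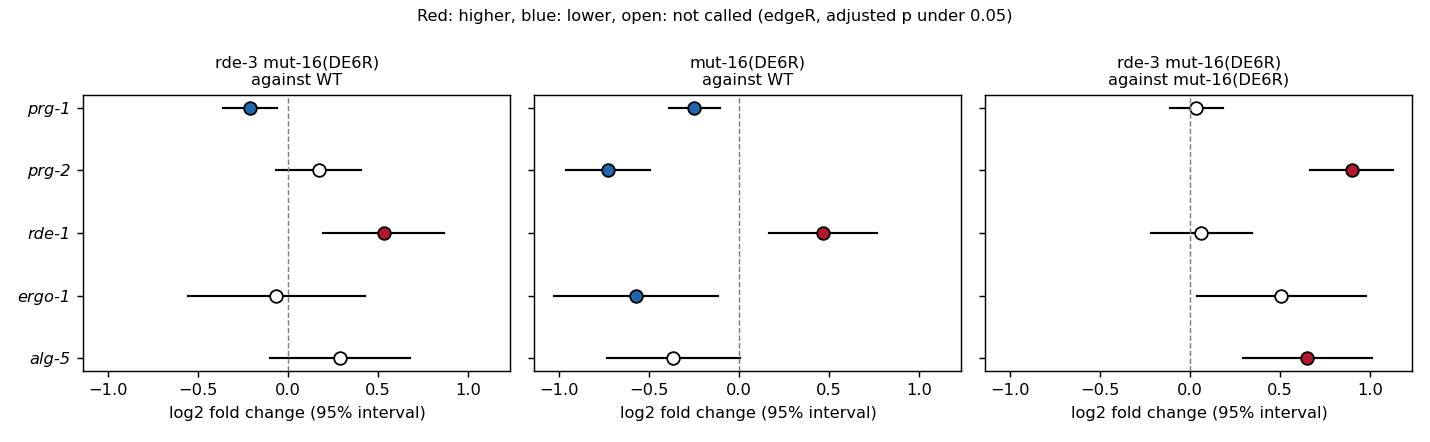
Log2 fold change (point) and 95% interval (line) of the 5 tested genes in each comparison with TMM scaling, red where called higher, blue where called lower and open where not called. The largest change is that of prg-2 in the double mutant against mut-16(DE6R), at 0.90.

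The scaling set the direction of most differences from WT. The TMM factors were 1.26 in both double-mutant libraries, 1.36 and 1.34 in mut-16(DE6R), against 0.582 and 0.593 in WT. With library totals all 5 tested members were higher in the double mutant and in mut-16(DE6R) than in WT, and the median over all tested genes moved with them, to 1.06 and 1.09 on the log2 scale. Over all genes the split of higher against lower calls moved as well, to 2944 and 1544 in the double mutant against WT, where TMM factors gave 1424 and 2015, and to 3394 and 1005 in mut-16(DE6R) against WT, where TMM factors gave 1173 and 1944. With totals without F56H9.8 the median over all tested genes was 1.22 in the double mutant and 0.76 in mut-16(DE6R), each against WT. Between the double mutant and mut-16(DE6R) that median was −0.11 with library totals and 0.38 with totals without F56H9.8, against −0.02 with TMM factors.

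**Figure D4:**
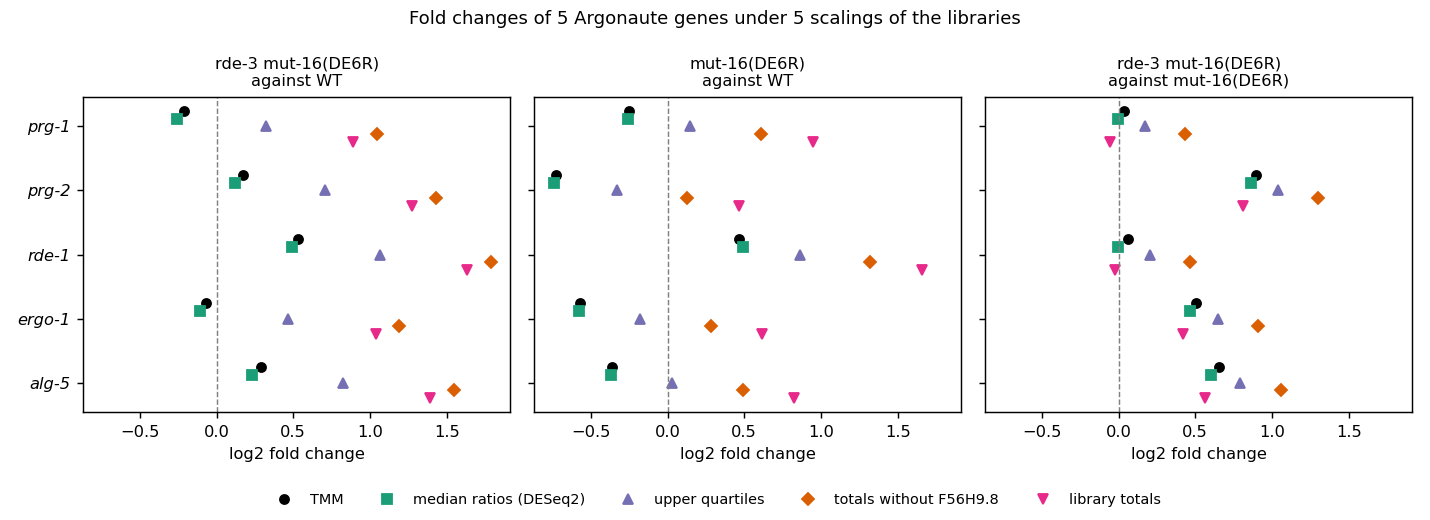
Log2 fold changes of the 5 tested genes under 5 scalings of the libraries, one panel per comparison and a dashed line at 0. Against WT the points of prg-1 and ergo-1 fall on either side of 0, those of rde-1 are all above 0, and in the double mutant against mut-16(DE6R) those of prg-2, ergo-1 and alg-5 are all above 0.

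Ratios between members within a library do not depend on scaling. For each 100 reads on prg-1, rde-1 held 12.4 and 15.9 reads in the double mutant, 15.1 and 13.3 in mut-16(DE6R), against 7.84 and 8.93 in WT, so that every mutant library lay above WT. On the same basis prg-2 held 24.1 and 32.0 reads in the double mutant, 15.1 and 15.6 in mut-16(DE6R), against 22.3 and 20.9 in WT, with no overlap between any groups. The values of ergo-1 were 5.16 and 5.51 in the double mutant, 3.88 and 3.83 in mut-16(DE6R), against 4.9 and 4.73 in WT, again without overlap. Those of the double mutant and WT rest on 34 and 38 against 35 and 45 reads, and by CPM these libraries overlapped (log2 fold change −0.07). For alg-5 they were 9.56 and 9.57 in the double mutant, against 6.63 and 6.04 in mut-16(DE6R) worms and 8.12 and 5.67 in WT. The double mutant lay above both other groups, which overlapped. These ratios were not tested, since 0.333 is the smallest p that an exact two-sided permutation of 2 against 2 libraries allows. Lack of overlap is therefore no sign of a difference by itself, and its share over all genes was not counted.

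**Figure D5:**
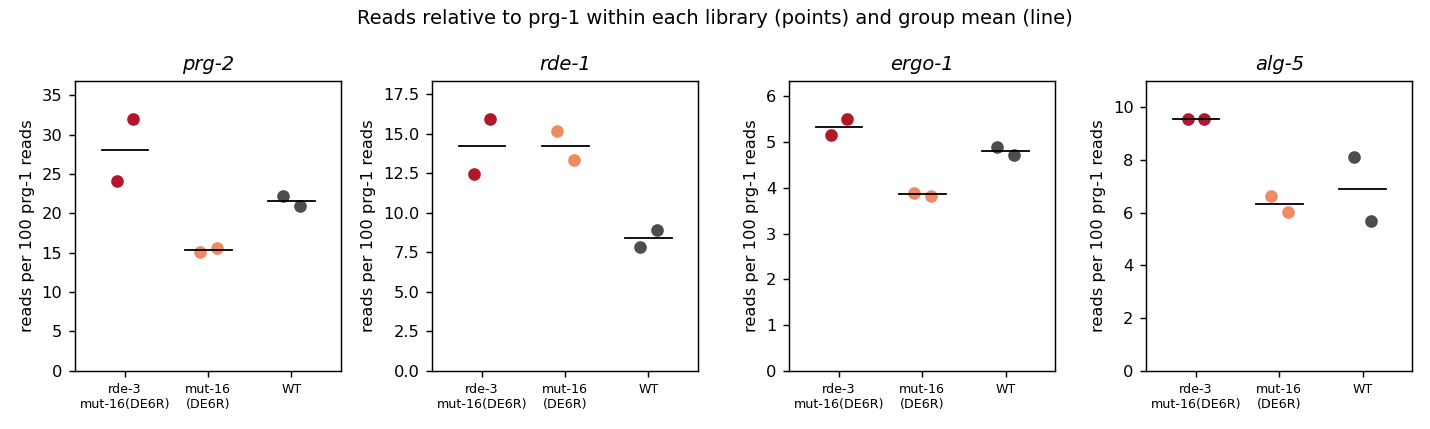
Reads on prg-2, rde-1, ergo-1 and alg-5 per 100 reads on prg-1 in the same library (points, vertical axis from 0) with the group mean (line). WT is lowest for rde-1, and mut-16(DE6R) is lowest for prg-2 and ergo-1.

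Partner genes of these Argonautes included far larger changes, given here with TMM scaling. The partner genes named are called genes with the smallest p of each list, whereas all members are given whatever their values. Larger changes among the named partners therefore follow in part from this choice. The counts below stand against 26.8% higher and 37.9% lower of all tested genes in the double mutant against WT, 22.1% and 36.6% in mut-16(DE6R) against WT, and 16.5% and 26.2% in the double mutant against mut-16(DE6R). Among 14 other Argonaute genes, the 12 worm-specific ones that hold secondary small RNAs and the sperm genes alg-3 and alg-4, 8 were tested, of which 4 rose and 3 fell in the double mutant against WT, 3 rose and 2 fell in mut-16(DE6R) against WT, and 3 rose and 2 fell in the double mutant against mut-16(DE6R). With library totals 6 were higher and 1 lower in mut-16(DE6R) against WT. Reads on wago-2 in the double mutant against WT were at −2.75 on the log2 scale (SE 0.12), sago-1 at −5.85 (SE 0.68, from 1 read in the double mutant) and wago-1, a germline member, at 1.21 (SE 0.13). The rise of wago-1 against mut-16(DE6R) was 0.90 (SE 0.11), as large as that of prg-2. In mut-16(DE6R) against WT, wago-2 fell by 1.61 (SE 0.09) and sago-1 by 1.49 (SE 0.29), and wago-4 rose by 0.52 (SE 0.09). The signs of these estimates were kept under 5 scalings.

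Of 16 genes needed to make piRNAs, 15 matched and were tested: 8 rose and 1 fell in the double mutant against WT, 1 rose and 2 fell in mut-16(DE6R) against WT, and 5 rose and 2 fell in the double mutant against mut-16(DE6R). The gene parn-1, which encodes the nuclease that trims the 3' ends of piRNA precursors, had 112 ± 27.9 CPM in the double mutant, 372 ± 6.41 in mut-16(DE6R) and 686 ± 6.78 in WT (SD, n = 2 each). It fell by 2.63 (SE 0.12) in the double mutant and by 0.88 (SE 0.09) in mut-16(DE6R) against WT on the log2 scale, but the estimate in mut-16(DE6R) was 0.32 with library totals. The count of risers in the double mutant against WT was 2 with DESeq2 and 14 with library totals, and in mut-16(DE6R) against WT library totals gave 12 higher and 0 lower and DESeq2 0 higher and 2 lower. The gene tofu-4, a gene of piRNA transcription, had 275 ± 3.41 CPM in the double mutant, 176 ± 5.69 in mut-16(DE6R) and 173 ± 21.0 in WT (SD, n = 2 each), and rose in the double mutant against both other groups (0.66 and 0.65) under all 5 scalings.

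Of 10 ERGO-1 pathway genes 9 were tested, with 3 higher and 2 lower in the double mutant against WT and the same counts in mut-16(DE6R) against WT, and 2 higher and 2 lower in the double mutant against mut-16(DE6R). In mut-16(DE6R) against WT the counts were 7 higher and 0 lower with library totals, and 0 and 1 with DESeq2. The helicase gene eri-6 had 91.4 ± 14.2 CPM in the double mutant, 1420 ± 6.32 in mut-16(DE6R) and 2957 ± 178 in WT (SD, n = 2 each), while the estimates for ergo-1 with TMM scaling lay between −0.57 and 0.51. The fall of eri-6 by 1.06 in mut-16(DE6R) against WT became 0.13 with library totals. Of 11 genes of exogenous RNA interference 8 were tested, with 2 higher and 3 lower in the double mutant against WT, 1 and 4 in mut-16(DE6R) against WT, and 3 and 1 in the double mutant against mut-16(DE6R). Library totals turned the counts in mut-16(DE6R) against WT to 5 higher and 0 lower. The gene sid-1, whose product lets double-stranded RNA into cells, fell by 4.01 (SE 0.14) in the double mutant against WT, whereas dcr-1, the gene of Dicer, rose by 0.89 (SE 0.12).

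Of 10 microRNA pathway genes 7 were tested, with 2 higher and 2 lower in the double mutant against WT, 1 and 3 in mut-16(DE6R) against WT, and 3 and 2 in the double mutant against mut-16(DE6R). For mut-16(DE6R) against WT library totals gave 6 higher and 0 lower, and DESeq2 0 and 1. The gene ebax-1, which encodes the substrate receptor of a ubiquitin ligase, had 17.7 ± 3.71 CPM in the double mutant, 49.4 ± 8.20 in mut-16(DE6R) and 141 ± 15.7 in WT (SD, n = 2 each). The microRNA effector gene ain-1 fell by 2.77 (SE 0.32) in the double mutant against WT. Of 4 CSR-1 pathway genes 3 matched and were tested. Among them ego-1, which encodes the RNA-dependent RNA polymerase that makes CSR-1 small RNAs, rose in the double mutant against WT (0.51, SE 0.10) and against mut-16(DE6R) (0.41, SE 0.09), while 0 genes of this list were called in mut-16(DE6R) against WT by edgeR or DESeq2, with 0 at an unadjusted edgeR p under 0.05, and all 3 were called higher with the other 3 scalings. The lists share dcr-1, rde-4 and henn-1, so their counts are not independent.

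The tested genes whose pattern over the 6 libraries was most like that of a member were found by the Euclidean distance of centred log2 CPM. They were vps-36 (0.15) and slc-25A46 (0.17) for prg-1, W09D10.4 (0.19) and Y65A5A.2 (0.19) for prg-2, cdc-5L (0.14) and hrpf-2 (0.14) for rde-1, sqv-6 (0.15) and sam-10 (0.15) for ergo-1, and rab-18 (0.15) and Y71H2B.5 (0.20) for alg-5. The median distance of a tested gene to these members was between 1.32 and 1.60. Within 0.5 of a member there were 79 genes for prg-2 and from 185 to 401 for the other 4, so that many genes had a pattern close to theirs.

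The proteins of prg-1 and rde-1 were also tethered to a transgene through the lambdaN peptide in other strains of the series. Reads mapped to the transgene were 124 and 163 with tethered PRG-1, 191 and 173 with tethered RDE-1, and 152 and 175 in the lambdaN tethered strain labelled wild type, so that either tethered protein overlapped the strain labelled wild type, and tethered RDE-1 lay above tethered PRG-1. Library totals of these strains were not used here, and no test was made.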

How the data were processed

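Per the labels' protocols, small RNAs of whole worms were extracted with Trizol, treated with PIR-1, ligated to linkers, amplified and size-selected. The submitters' processing notes name cutadapt 4.9, Bowtie 1.3.1 and WBcel235. No source used here gives the counting program, its use of strand or its rule for multi-mapping reads. The authors deposited whole-number read counts per transcript with a length beside each, and 1 count per tethered library of reads mapped to the transgene. Of 34324 identifiers, 33755 matched a transcript and 202 a sequence name of Ensembl release 115 or RefSeq (WBcel235), and 367 matched none. The last row names no gene and held 0 reads. Lengths equalled the annotation in 33720 of 33755 transcripts.

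Counts were summed per gene and fitted in edgeR 4.0.16 (R 4.3.3; robust quasi-likelihood F test, TMM factors, 3 groups, 3 residual degrees of freedom) on genes kept by its filter (minimum count 10, minimum total 15), which hold 98.3% of the reads, with Benjamini-Hochberg adjustment at 0.05 over all tested genes. The SE is the log2 fold change over the root of F and restates the p-value. A 22-base window is isoform-specific if it holds a base in no other listed transcript of its gene. DESeq2 1.42.0, other scalings, filters and left-out libraries were alternatives. On simulated counts of 5312 genes for the double mutant against WT, 100% of 17 genes changed 2-fold with over 100 reads per library were called. With 10 to 100 reads 47.0% of 83 were called. Of genes changed 1.5-fold at the same depths 76% of 25 and 18.7% of 75 were called, and of unchanged genes 0.0782%. In the simulation 5112 genes were unchanged and the changes were balanced in direction, whereas 64.7% of tested genes were called in the data. The simulated rates therefore do not carry over to these data, where the direction of many changes depends on scaling. Named were the 8 members, up to 3 called genes with the smallest p of each list, and 2 nearest genes per tested member. Members and lists were chosen with earlier results of these data known. Floors and intervals cover counting error only.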

Additional observations from a re-analysis of the deposited data

How the results depend on the processing

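The rise of prg-2 in the double mutant against mut-16(DE6R) was called under every alternative. Called members (higher and lower) were 1 and 1 in the double mutant against WT, 1 and 3 in mut-16(DE6R) against WT, and 2 and 0 in the double mutant against mut-16(DE6R). With DESeq2, 0, 0 and 1 members were higher in these comparisons. With library totals 5 and 5 were higher and 0 and 0 lower against WT. With totals without F56H9.8, 5, 3 and 5 were higher, and 0 and 0 lower against WT. With upper quartiles, 4, 2 and 4 were higher, and 0 and 1 lower against WT. With no filter, 1 member was lower in either mutant against WT; this was alg-2, and no member called lower with the filter passed. In this setting 1 was higher in the double mutant against mut-16(DE6R). With only the groups compared, 1 was lower in mut-16(DE6R) against WT. An alternative chosen after seeing the data used only genes of 1 listed transcript, so that ergo-1 was left out. With it 3 were higher and 0 lower in the double mutant against WT, and 1 lower in mut-16(DE6R) against WT. The median over all genes was then 0.10 and 0.04 in these comparisons, against −0.03 and −0.09 in the main fit. Shares of all genes called with only the groups compared or only genes of 1 listed transcript are not given, so these member counts have no background here.

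Over all genes, 1424, 1173 and 878 were higher. DESeq2 gave 747, 482 and 217 higher, library totals 2944 and 3394 against WT, totals without F56H9.8 3069, 2938 and 2028, and upper quartiles 2369 and 2107 against WT. No filter gave 1789 higher in mut-16(DE6R) against WT and 143 in the double mutant against mut-16(DE6R). In mut-16(DE6R) against WT, 1944 were lower, against 1005 with library totals and 1244 with totals without F56H9.8.

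Estimates that changed sign were, with library totals, prg-1 (0.89) and ergo-1 (1.04) in the double mutant against WT, prg-1 (0.95), prg-2 (0.46), ergo-1 (0.62) and alg-5 (0.82) in mut-16(DE6R) against WT, and prg-1 (−0.053) and rde-1 (−0.024) between the mutants. With totals without F56H9.8 they were prg-1 (1.04) and ergo-1 (1.19) in the double mutant against WT, and prg-1 (0.61), prg-2 (0.13), ergo-1 (0.28) and alg-5 (0.49) in mut-16(DE6R) against WT. With upper quartiles they were prg-1 (0.32) and ergo-1 (0.47) in the double mutant and prg-1 (0.15) and alg-5 (0.031) in mut-16(DE6R), each against WT. With no filter they were prg-1 (0.10) and alg-5 (0.0030) in mut-16(DE6R) against WT, and prg-1 (−0.26) and rde-1 (−0.25) between the mutants. With DESeq2 they were prg-1 (−0.0020) and rde-1 (−0.0011) between the mutants. The cause was not tested.

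Leaving out 1 library at a time, members higher ranged from 0 to 1, 0 to 1 and 1 to 2 in the 3 comparisons, and members lower from 0 to 1, 2 to 3 and 0 to 0. All genes higher ranged from 1093 to 1399, 776 to 1185 and 554 to 855, and lower from 1906 to 1999, 1752 to 1973 and 1135 to 1397. The sign changed for prg-2 in the double mutant against WT without its second library (−0.013, within a range of −0.013 to 0.30 over left-out libraries), and between the mutants for prg-1 without the first double-mutant library (range −0.026 to 0.082) and for rde-1 without the second double-mutant or second mut-16(DE6R) library (range −0.080 to 0.17; −0.062 for the mut-16(DE6R) library). With a replicate block no member call changed (prg-2 was at 0.91 between the mutants). Deviations of equally numbered libraries correlated at −0.02, −0.02 and −0.0007, so no shared deviation by number was seen. This does not settle whether equally numbered libraries were grown or prepared together. The filter left csr-1, alg-1 and alg-2 out of the test. Over all libraries alg-1 and alg-2 held 34 and 38 reads, and csr-1 could be counted over 75 windows.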
